A study of Mus musculus with 90 samples.

Results

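The genes described here mark endothelial cells, which line the blood vessels of a tumour. They are Pecam1, Cdh5, Tie1, Tek, Eng, Kdr, Flt1, Vwf, Vcam1 and Sele, chosen by name with earlier results of these data known. Every probe set annotated to one of them was taken. All 10 had a probe set, 17 probe sets in all, among 18193 genes represented by 34945 probe sets with a single gene symbol. Each gene is given by its brightest probe set on average, and its other probe sets are described further on.

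Gene expression was measured on Affymetrix mouse arrays in 90 melanoma allografts grown under the skin, with 1 array per tumour sample. All carry the same labels for genotype, Hgftg;Cdk4R24C/R24C (an Hgf transgene with a knock-in of mutant Cdk4), and for strain, B6.cBrd. PBS tumours (7) received 10 ml/kg of saline, and controlIgG tumours (22) received 10 mg/kg of a control mouse IgG1 D265A antibody. The remaining tumours received 10 mg/kg of an antibody against mouse PD-L1 with the same IgG1 D265A backbone, and the labels sort them by what the tumour then did. Responder tumours (27) had shrunk, NonResponder tumours (23) had kept growing and were taken at matched times, and Relapse tumours (6) had shrunk below measurement and come back. GrowthDelay tumours (2) first failed to grow and then appeared after the antibody, and Stabilization tumours (3), a subset of the responding design, held their volume between consecutive measurements. These groups are therefore outcomes under 1 treatment and not assigned treatments. The labels do not say that the arrays of a group come from separate mice, so p-values measure only the spread between these samples.

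Endothelial cells are held together by adhesion proteins at their junctions and are kept alive and organised by growth factor receptors on their surface. In tumours, vascular endothelial growth factor drives new vessel growth, and angiopoietins set how stable or leaky the vessels are. When inflammatory cytokines reach the vessel wall, endothelial cells display adhesion molecules that slow and stop passing leukocytes, which is the step by which T cells enter a tissue. Several of these genes are also active outside endothelium: Pecam1 in platelets and many leukocytes, Vcam1 in some macrophages and stromal cells, Eng in activated macrophages and mesenchymal cells, and Vwf in megakaryocytes.

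The sample titles are numbers that form separate blocks, named title series below. The largest, S223, has 53 arrays and the second largest, S197, has 25, and both hold Responder, NonResponder and Relapse tumours. Another holds 8 controlIgG arrays and the last 4 PBS arrays. What the blocks stand for is not given in the labels. Array medians lay between 5.71 and 5.90 on the log2 scale. Melanocyte markers, the check on the labelled tissue, averaged between 10.2 and 11 in every PBS tumour and between 6.79 and 10.9 in Responder tumours. Some arrays stood apart. The mean over 10 skeletal muscle markers lay more than 2 log2 units above the median of all arrays (5.30) in 26 arrays of 7 groups, and reached 13.6 in a Responder tumour. The mean over 6 measured lymph node markers did so in 3 arrays, and 8 arrays had a low mean correlation with the others. For the 10 genes, results that rest on these arrays are given with and without them. Counts for lists of other genes are given with all arrays only.

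The 10 genes were measured at very different signal. The mean over the 90 arrays was 9.69 for Eng, 8.29 for Vcam1, 7.20 for Pecam1, 7.12 for Kdr and 6.93 for Cdh5, all log2 probe set values. It was 6.67 for Flt1, 5.93 for Vwf, 5.44 for Tie1, 4.76 for Tek and 3.99 for Sele. Because probes bind with different strength, these means say where a probe set lies on the array and not which gene is more abundant. Vcam1 was the most variable, from 5.58 to 11.31, with an SD over all arrays in the 99.3rd percentile of all genes. Sele, from 3.61 to 4.46, was among the flattest, with an SD in the 8.58th percentile and a mean in the 11.2th percentile, so its probe set carried little signal in any tumour.

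**Figure D1:**
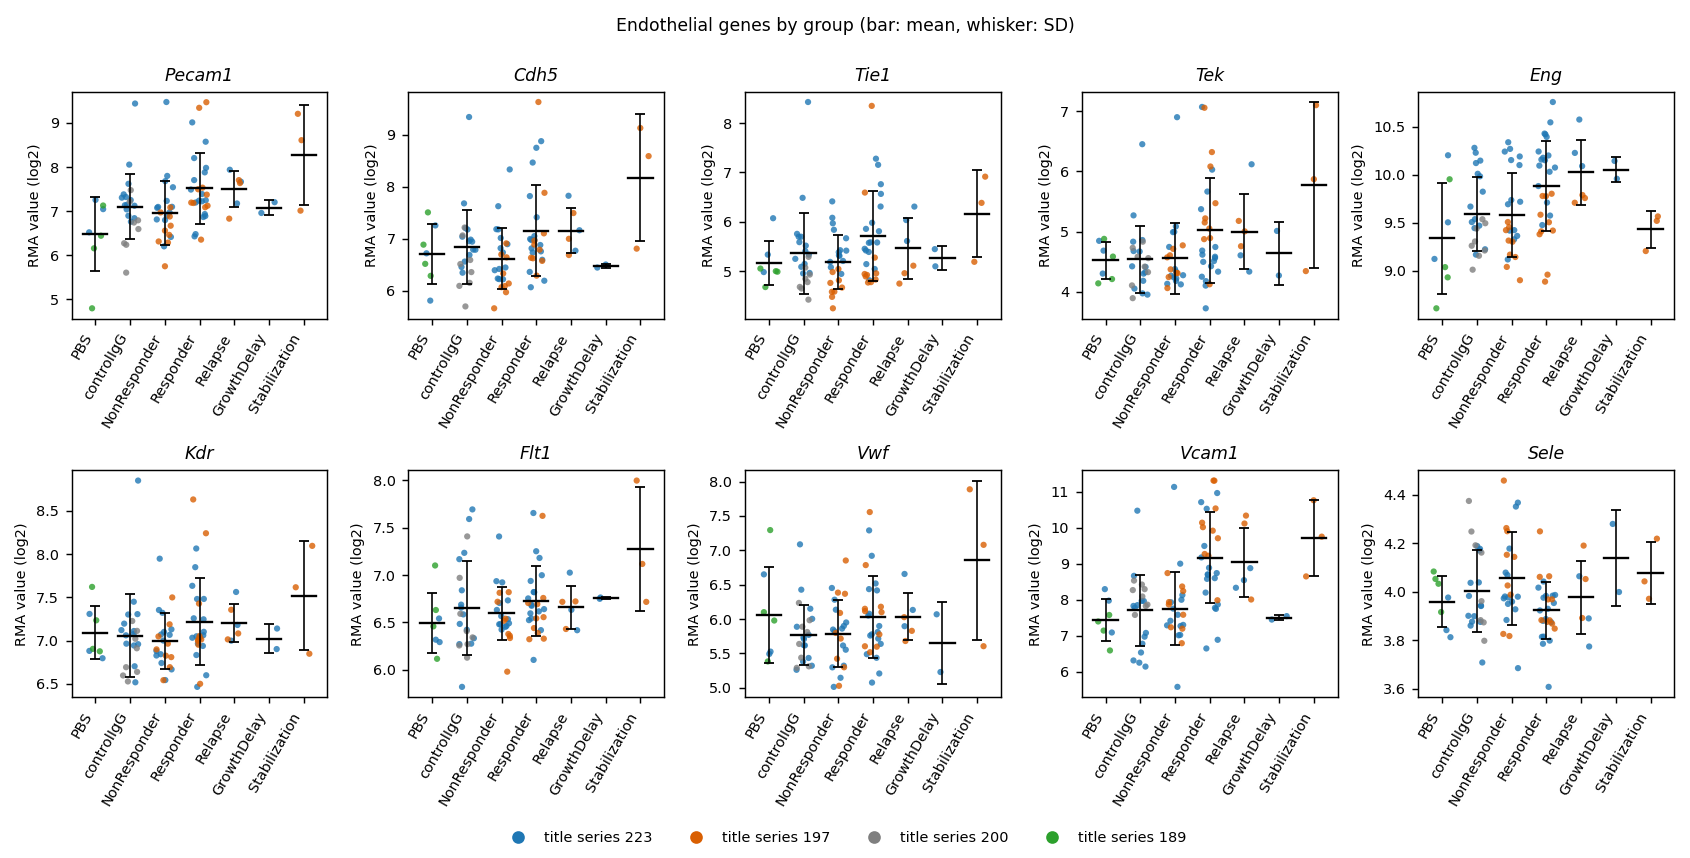
The log2 value of each endothelial gene in each of the 90 arrays, by group, 1 panel per gene, with points coloured by title series, the bar at the group mean and the whisker at 1 SD. Vcam1 spans 5.58 to 11.31 and is highest on average in Stabilization, Responder and Relapse tumours, while Sele stays between 3.61 and 4.46.

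Stabilization tumours had the highest mean of the 7 groups for 8 genes: Pecam1 (8.28), Cdh5 (8.18), Tie1 (6.16), Tek (5.77), Kdr (7.52), Flt1 (7.28), Vwf (6.86) and Vcam1 (9.72). Responder and Relapse tumours followed for 6 of these, for example at 7.51 and 7.49 for Pecam1 and at 9.17 and 9.04 for Vcam1, while GrowthDelay was next for Flt1 (6.76) and PBS for Vwf (6.06). For Vcam1, NonResponder, controlIgG, GrowthDelay and PBS tumours lay below, at 7.76, 7.70, 7.50 and 7.44. Eng had another order, with GrowthDelay (10.05), Relapse (10.03) and Responder (9.88) above controlIgG (9.59), NonResponder (9.58), Stabilization (9.43) and PBS (9.34). All these means are unadjusted for title series, and GrowthDelay tumours were all in S223 and Stabilization tumours all in S197. For Eng, Stabilization minus NonResponder was -0.15 without the title series as a block and 0.22 with it. Groups next to each other in these orders were close: in 59 of 60 neighbouring pairs the gap between means was under the larger SD, the exception being Vcam1 between Relapse and NonResponder. The ranges overlapped in all 60 pairs.

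Responder against NonResponder asks how the vessels' genes differ between tumours that shrank and tumours that grew under the same antibody. Vcam1, the leukocyte-binding adhesion molecule, was 2.69-fold higher in the Responder tumours, and the junction genes Pecam1 and Cdh5, the angiopoietin receptor genes Tie1 and Tek and the coreceptor gene Eng were 1.22-fold to 1.47-fold higher. Sele, a selectin that slows leukocytes, was slightly lower. The VEGF receptor genes Kdr and Flt1 and the platelet-capturing factor gene Vwf did not pass the test. Thus 7 of 10 genes were called at an adjusted p under 0.05 (limma, Benjamini-Hochberg over all 18193 genes), against 47% of all genes, 6 of them higher, against 17.2%, and 1 lower, against 29.8%. The median difference of the 10 genes was 0.38 on the log2 scale, and that of all genes was -0.06. With each array centred on its own median, which shifts all differences by the same amount, 11.3% of all genes were called higher and 50.2% lower, and 5 of the 10 genes higher, without Tek, and Sele lower. In bulk tumour RNA, a change in the number of endothelial cells and a change in RNA per cell cannot be told apart.

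Vcam1 (vascular cell adhesion molecule) binds the integrin VLA-4 of lymphocytes and monocytes. In Responder tumours its lowest, median and highest log2 values were 6.65, 9.17 and 11.31, and in NonResponder tumours 5.58, 7.58 and 11.13. Of the 27 Responder tumours 25 lay above the NonResponder median, and the ranges overlapped almost fully, with 1 NonResponder tumour at 11.13. The means were 9.17 ± 1.27 (SD, n = 27) and 7.76 ± 1.02 (SD, n = 23). The fitted difference was 1.43 ± 0.29 on the log2 scale (SE, 95% interval 0.86 to 2.00, limma adjusted p = 0.000263). That NonResponder tumour, replicate 14, is 1 of the 3 arrays with lymph node transcripts. Without those 3 arrays the difference was 1.53, and without the 26 arrays with muscle transcripts it was 1.09 (adjusted p = 0.0334, 14.3% of all genes called). Vcam1 was called in each of 11 alternatives fitted across the title series and in all 50 fits that left out 1 tumour, but not in S223 taken alone.

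Eng (endoglin) is a coreceptor for ligands of the TGF-beta family on proliferating endothelium. Its Responder values were 8.89, 9.88 and 10.76 (lowest, median, highest) and its NonResponder values 8.90, 9.42 and 10.34. The highest Responder tumours thus exceeded every NonResponder tumour while the lowest were alike, and 22 of 27 lay above the NonResponder median. The difference was 0.29 ± 0.10 (SE, 1.22-fold, limma adjusted p = 0.0122), and it was called in all 50 fits that left out 1 tumour. Without the arrays with muscle transcripts it was 0.24 and no longer passed (adjusted p = 0.106, 14.3% of all genes called).

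Pecam1 (CD31) and Cdh5 (VE-cadherin) join endothelial cells to each other. Pecam1 was 6.35, 7.25 and 9.47 in Responder tumours and 5.75, 6.89 and 9.48 in NonResponder tumours, a difference of 0.55 ± 0.21 (SE, limma adjusted p = 0.0241, 22 of 27 above the NonResponder median). Cdh5 was 6.07, 6.89 and 9.63 against 5.67, 6.45 and 8.33, a difference of 0.53 ± 0.20 (adjusted p = 0.0271, 23 of 27). For both genes the Responder median lay above the NonResponder median and the ranges overlapped, and only for Cdh5 did the highest Responder tumour exceed every NonResponder tumour.

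Tie1 and Tek encode the TIE receptors, of which Tek binds angiopoietins and Tie1 has no well-defined ligand. Tie1 was 4.77, 5.45 and 8.35 in Responder tumours and 4.25, 5.19 and 6.41 in NonResponder tumours, a difference of 0.50 ± 0.19 (SE, limma adjusted p = 0.0275, 17 of 27 above the NonResponder median). Tek was 3.73, 4.75 and 7.07 against 4.06, 4.34 and 6.90, a difference of 0.47 ± 0.20 (adjusted p = 0.0433, 21 of 27). The groups overlapped for both, and Tek was called in only 26 of the 50 fits that left out 1 tumour. Cdh5 and Tie1 each lost their call in 1 of those fits, the one without Responder replicate 21.

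The calls of these 4 genes changed when arrays set apart above were left out. Responder replicate 21 was among the 5 highest arrays for 8 of the 10 genes, had the highest muscle score of all (13.6) and the lowest mean correlation (0.902). Without the 8 arrays of low correlation Pecam1 (0.38, limma adjusted p = 0.0364) and Tek (0.37, 0.0394) still passed, and Cdh5 (0.36, 0.0687) and Tie1 (0.30, 0.109) did not. Without the 26 arrays with muscle transcripts none of the 4 passed, at 0.45 for Pecam1, 0.41 for Cdh5, 0.44 for Tie1 and 0.47 for Tek, and only Vcam1 did. Over all arrays the same differences were 0.55, 0.53, 0.50 and 0.47. The fit without those 26 arrays called 14.3% of all genes, against 47% with all 90. The muscle score ranged from 4.69 to 13.6 in Responder tumours (median 5.13) and from 4.89 to 10.8 in NonResponder tumours (median 5.30). None of the 10 muscle markers was called between these groups. The part of muscle in the endothelial differences was not tested.

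Kdr and Flt1 are the main VEGF receptors of endothelium, Kdr the signalling one and Flt1 a high-affinity receptor that also acts as a decoy. Kdr was 6.47, 7.05 and 8.63 in Responder tumours and 6.54, 6.97 and 7.95 in NonResponder tumours, a difference of 0.22 with a 95% interval of -0.02 to 0.46 (limma adjusted p = 0.115). Flt1 was 6.10, 6.68 and 7.65 against 5.98, 6.53 and 7.41, a difference of 0.13 with an interval of -0.09 to 0.34 (adjusted p = 0.316). For both the medians of the groups lay closer together than the spread within either. Vwf, the factor that catches platelets at damaged walls, was 5.08, 5.90 and 7.56 against 5.01, 5.82 and 6.85, with a difference of 0.25 and an interval of -0.06 to 0.56 (adjusted p = 0.178). These intervals allow rises up to those sizes in the probe sets used. Another Flt1 probe set, described further on, gave 0.72 and was called.

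Sele (E-selectin) is made almost only by cytokine-activated endothelium. Its values were 3.61, 3.92 and 4.25 in Responder tumours and 3.69, 3.99 and 4.46 in NonResponder tumours, and the difference was -0.13 ± 0.04 (SE, limma adjusted p = 0.0134), with 5 of 27 Responder tumours above the NonResponder median. This is the smallest shift among the 7 called genes, in a probe set near the bottom of the array's range. After quantile normalization of the arrays it was -0.04 (adjusted p = 0.444).

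**Figure D2:**
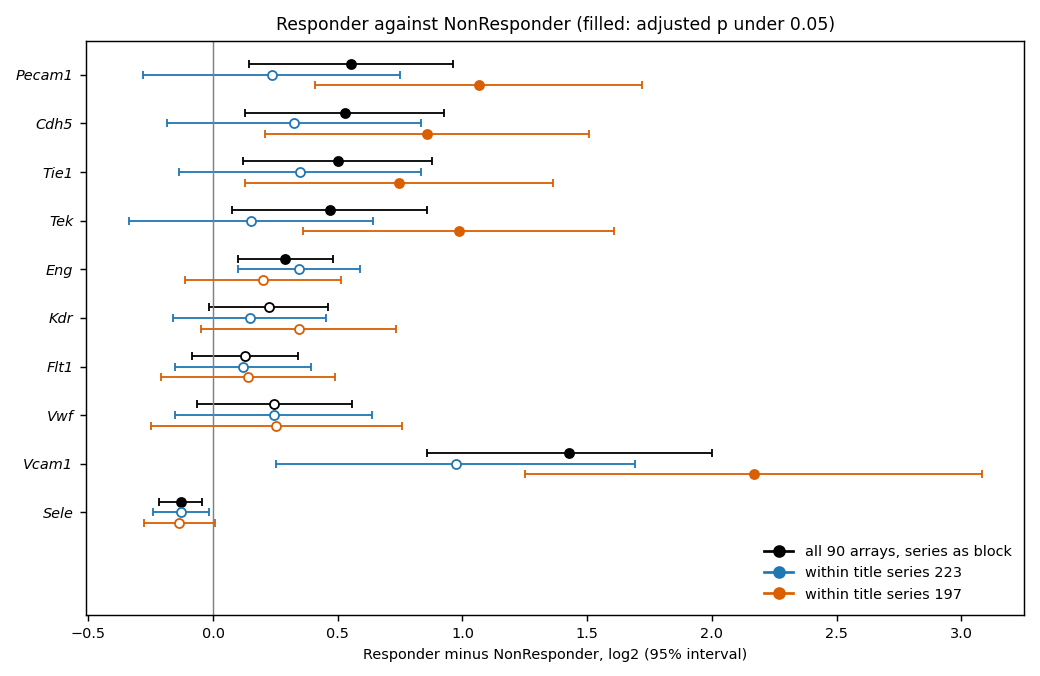
Responder minus NonResponder on the log2 scale with 95% intervals for each gene, over all 90 arrays with the title series as a block and within each of the title series that hold both groups, filled where the adjusted p is under 0.05. Vcam1 lies farthest to the right in all 3 (1.43, 0.97 and 2.17), and no gene is filled within series S223.

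The same comparison was made inside each title series. In S197 (10 Responder and 9 NonResponder tumours) 5 of 10 genes were called, all higher, against 36.7% of all genes (14.3% higher). Vcam1 was 7.99, 9.97 and 11.31 (lowest, median, highest) against 6.79, 7.87 and 8.74, with 10 of 10 Responder tumours above the NonResponder median and a difference of 2.17 ± 0.46 (SE, 4.49-fold, limma adjusted p = 0.000993). Pecam1 (1.06, adjusted p = 0.0111), Tek (0.98, 0.0133), Cdh5 (0.86, 0.0331) and Tie1 (0.75, 0.05) also passed. Without the low-correlation arrays Vcam1 in S197 stood at 1.85 (limma adjusted p = 0.00517, 10.9% of all genes called). Pecam1 (0.52, 0.171), Tek (0.71, 0.0503), Cdh5 (0.42) and Tie1 (0.23) then no longer passed. Without the lymph node arrays Vcam1, Pecam1 and Tek still passed in S197 (26.6% of all genes called). Cdh5 (0.78, 0.0654) and Tie1 (0.62, 0.120) then did not.

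In S223 (17 Responder and 14 NonResponder tumours) limma called none of the 10 genes at an adjusted p under 0.05, against 2.63% of all genes, and 3 had an unadjusted p under 0.05. Vcam1 was 6.65, 8.69 and 10.96 against 5.58, 7.50 and 11.13, a difference of 0.97 (95% interval 0.25 to 1.69, adjusted p = 0.0948, 15 of 17 above the NonResponder median). Eng was 9.48, 10.16 and 10.76 against 9.12, 9.73 and 10.34, a difference of 0.34 (adjusted p = 0.0848), and Sele differed by -0.13 (adjusted p = 0.143). Without the 3 lymph node arrays, Vcam1 in S223 stood at 1.23 and passed (adjusted p = 0.0115, 17.7% of all genes called), as it did without the low-correlation arrays (1.12, adjusted p = 0.0174, 18.9%). Eng differed by 0.34 in S223 and 0.20 in S197. The difference between the series was tested as an interaction, and limma called it for none of the 10 genes and for 0% of all genes. At an unadjusted p under 0.05 it was met by 2 of the 10 genes, and Vcam1 differed by 1.19 (adjusted p = 0.366), Tek by 0.83 (0.359), Pecam1 by 0.83 (0.376) and Eng by -0.14 (0.741) between series.

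Responder against controlIgG sets shrinking tumours against tumours that had received no PD-L1 antibody, and shares the Responder arrays with the comparison above. Only Eng and Vcam1 were called, both higher, 2 of 10 genes against 37.3% of all genes (14.5% higher), a smaller share than among all genes. Vcam1 in controlIgG tumours was 6.14, 7.84 and 10.47 (lowest, median, highest), and 23 of 27 Responder tumours lay above that median. The difference was 1.44 ± 0.35 (SE, 2.72-fold, limma adjusted p = 0.00236). Eng in controlIgG tumours was 9.01, 9.50 and 10.28, with 21 of 27 Responder tumours above the median and a difference of 0.35 ± 0.12 (1.28-fold, adjusted p = 0.0164).

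The direct difference inside S223, where both groups were present, was 1.25 for Vcam1 (limma adjusted p = 0.0118, 15 of 17 above the controlIgG median) and 0.38 for Eng (0.021), against 27.3% of all genes called (10.9% higher). The other 8 genes did not pass, with differences from -0.08 for Sele to 0.34 for Tek over all arrays. The median of the 10 genes was 0.20 and that of all genes -0.06. With median centring 11.1% of all genes were called higher and 34.2% lower, and the same 2 of the 10 genes were called. Fitted with no block for the title series, Eng fell short (0.29, adjusted p = 0.0575). Without the muscle arrays Tie1 also passed (0.58, adjusted p = 0.0184).

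NonResponder tumours were not told apart from controlIgG tumours in any of the 10 genes. Limma called none at an adjusted p under 0.05, none had an unadjusted p under 0.05, and 0% of all genes were called. The differences ran from -0.35 for Cdh5 to 0.06 for Eng, and for Vcam1 the difference was 0.01 with a 95% interval of -0.71 to 0.73. ControlIgG against PBS gave no call among the 10 genes either (0.0055% of all genes), with none at an unadjusted p under 0.05. GrowthDelay against NonResponder gave none (0%), again with none at an unadjusted p under 0.05, but with 2 GrowthDelay tumours the interval for Vcam1 was -1.49 to 1.52.

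Relapse tumours had shrunk and regrown. Against NonResponder tumours, which never shrank, 1 of 10 genes was called, Eng, which was 1.43-fold higher, against 20.3% of all genes (8.43% higher). Its values were 10.58, 10.23 and 10.09 in the S223 Relapse tumours and 9.79, 9.71 and 9.76 in those of S197. All 6 lay above the NonResponder median, and the S197 values did not overlap the NonResponder range there, 8.90 to 9.51. The direct differences inside S223 and inside S197 called none of the 10 genes, Eng included (0% and 13.1% of all genes called). The difference was 0.51 ± 0.15 (SE, limma adjusted p = 0.023). The call ended without Relapse replicate 1, 4 or 6. It also ended without the muscle arrays (adjusted p = 0.0921, 1.43% of all genes called) or the block (0.102, 8.91%). With quantile normalization 1.83% of all genes were called higher and 5.46% lower, and with median centring, which moved the median of all genes from -0.06 to -0.18, 4.38% and 36%. Eng was called under both, with Vcam1 higher and Sele lower added under the latter.

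Vcam1 in Relapse tumours was 8.88, 8.33 and 8.54 in S223 and 10.34, 8.01 and 10.12 in S197. All 6 lay above the NonResponder median of 7.58, and the difference of 1.20 just missed the threshold (limma adjusted p = 0.0531). Against Responder tumours limma called none of the 10 genes and 0% of all genes, and none of the 10 had an unadjusted p under 0.05. The difference from Responder tumours was 0.22 for Eng (95% interval -0.08 to 0.53) and -0.22 for Vcam1 (-1.14 to 0.69). Relapse replicate 6 is 1 of the 3 lymph node arrays and 2 Relapse arrays carried muscle transcripts.

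Stabilization tumours, which held their volume, were higher than NonResponder tumours in the junction genes Cdh5 and Pecam1, in Tie1, in Flt1 and in Vwf, 5 of 10 genes called, against 22.4% of all genes (10.5% higher). Cdh5 was 9.13, 8.59 and 6.81 in replicates 1, 2 and 3, and Pecam1 was 9.21, 8.61 and 7.01. Tie1 was 6.91, 6.38 and 5.19, Vwf 7.89, 7.08 and 5.61, and Flt1 8.0, 7.12 and 6.72. Replicate 3 was the lowest in each. Replicates 1 and 2 exceeded all 23 NonResponder tumours for Cdh5 and Vwf, and replicate 1 alone did for Tie1 and Flt1. The Pecam1 values all lay within the NonResponder range.

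The fitted difference was 1.72 ± 0.45 for Cdh5 (SE, 3.28-fold, limma adjusted p = 0.00705), 1.45 for Pecam1 (2.74-fold, 0.0195) and 1.38 for Tie1 (2.60-fold, 0.0174). It was 1.01 for Vwf (2.01-fold, 0.0302) and 0.77 for Flt1 (1.70-fold, 0.0175), and all 3 tumours lay above the NonResponder median for each but Vwf, where 2 did. Tek (7.10, 5.87 and 4.34) and Vcam1 (9.75, 10.76 and 8.65) did not pass over all arrays, at 1.08 (adjusted p = 0.0631) and 1.54 (0.0702). Eng was 9.57, 9.52 and 9.21, at 0.22 (0.443). The direct difference within S197, against its 9 NonResponder tumours, called 7 of 10 genes, all higher, against 31.3% of all genes (13.3% higher), adding Tek (1.33, 0.0212) and Vcam1 (1.95, 0.0217). The median over the 10 genes was 1.04, and that of all genes -0.09. With median centring 9.1% of all genes were called higher and 19.7% lower, and the same 5 of the 10 genes were called.

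This result rested on 2 tumours. Replicates 1 and 2 both carried muscle transcripts and both had low mean correlations with the other arrays (0.927 and 0.959), and the group's muscle score ran from 4.98 to 11.84 and its melanocyte score from 7.08 to 10.52. Leaving out either replicate ended all 5 calls. With either set of arrays taken out, only replicate 3 remained, limma called none of the 10 genes and 0% of all genes, and Cdh5 stood at 0.38 and 0.45. Vwf then turned to -0.25 and -0.24. The part of muscle in these levels was not tested.

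**Figure D3:**
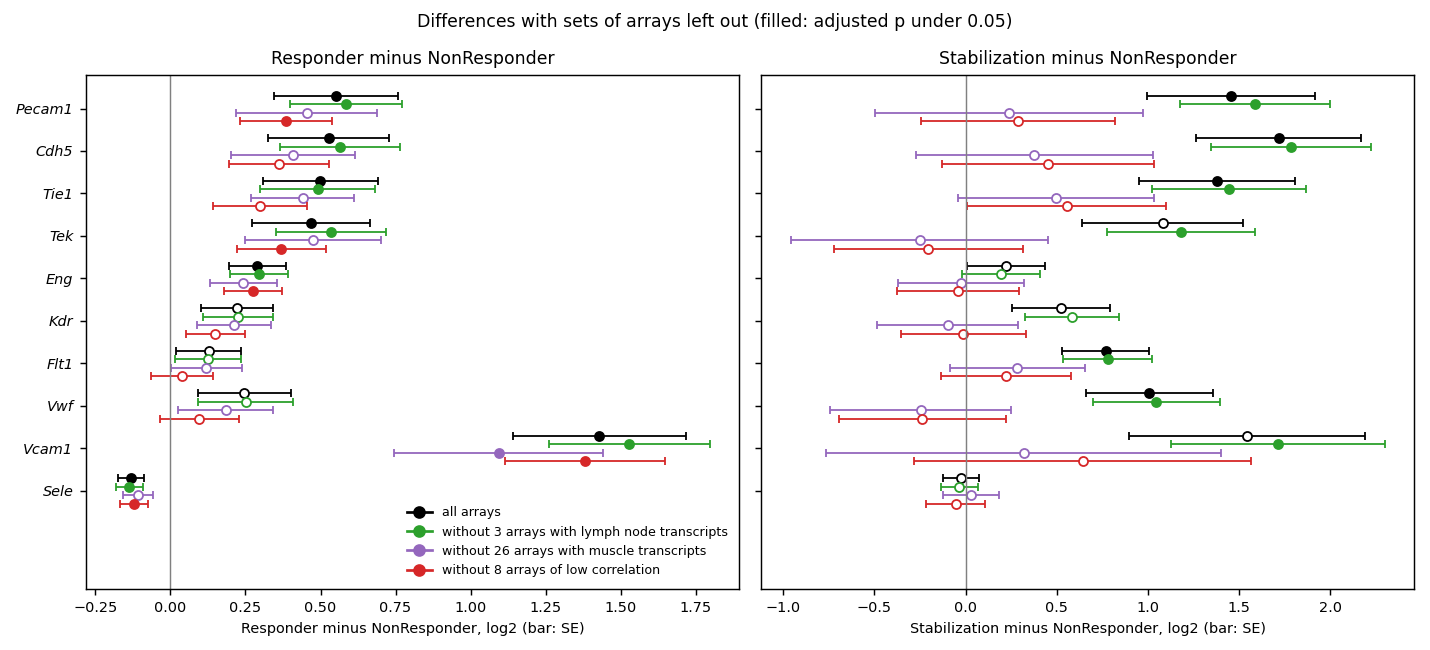
Differences from NonResponder on the log2 scale with SE bars, for Responder (left) and Stabilization (right) tumours, over all arrays and without each set of arrays that stood apart, filled where the adjusted p is under 0.05. In the left panel only Vcam1 is filled in all 4 settings, and in the right panel no gene is filled without the muscle arrays or the low-correlation arrays.

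Several of the genes have more than 1 probe set, and these did not always move together. All single-gene probe sets were fitted at once for this, with 40.6% called between Responder and NonResponder tumours. The 3 probe sets of Vcam1 gave 1.43, 1.04 and 0.48, all called, and the pair for Eng gave 0.29 and 0.23, both called. Flt1 was split: the probe set used above gave 0.13 and 2 others 0.09 and -0.03, but the remaining one, 1419300_at, gave 0.72 ± 0.18 (SE, limma adjusted p = 0.00217). It was also called in Responder against controlIgG tumours (0.59, 0.0346) and in Relapse against NonResponder tumours (0.83, 0.0457). Flt1 makes a membrane-bound and a shorter soluble form, and which transcript each probe set reads is not given in the sources used here. The dimmer probe set of Cdh5, 1422047_at, with a mean of 4.66, moved the other way (-0.15, adjusted p = 0.043), also against controlIgG (-0.31, 0.00292), and correlated with the one used at r = 0.26 across the 90 arrays, a description in which all points share the arrays.

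**Figure D4:**
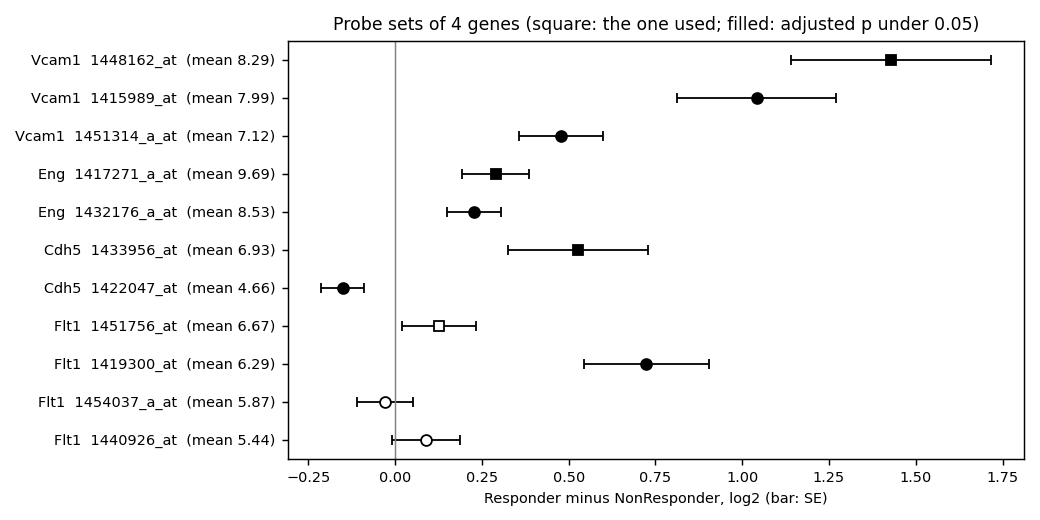
Responder minus NonResponder on the log2 scale with SE bars for each probe set of the genes that have more than 1, with a square for the probe set used elsewhere. The 3 Vcam1 and both Eng probe sets lie above 0, while Flt1 runs from -0.03 to 0.72 and Cdh5 has 1 probe set at -0.15.

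Across tumours most of the endothelial genes varied together, Eng less closely, while Sele had no positive correlation with them that passed. Deviations of the 90 arrays from the mean of their group and title series were correlated for 125 pairs (45 pairs of the 10 genes and 80 of a gene with a marker score), with permutations within group and series. Among the 45 gene pairs 32 passed with both Pearson's r and Spearman's rho at a Benjamini-Hochberg adjusted p under 0.05. Cdh5 and Tie1 were closest, at r = 0.904 and rho = 0.822 (permutation p adjusted to 2.19e-05 and 2.5e-05), and r was 0.87 without the 2 farthest arrays. Mean r with the other 5 genes of the group Pecam1, Cdh5, Tie1, Tek, Eng and Kdr lay between 0.65 and 0.75 for all but Eng, whose mean r was 0.25. Eng passed with 5 of the other 9 genes, Vwf (r 0.361), Tie1 (0.358), Kdr (0.328), Cdh5 (0.322) and Flt1 (0.291), and had an r of 0.182 with Pecam1, 0.0728 with Tek and 0.0713 with Vcam1. Sele passed with Vcam1 alone, at an r of -0.278, the only negative one among the 32. Its other r values lay between -0.18 (Cdh5) and 0.105 (Flt1).

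Scores of other cell types varied with these genes as well. The mean of the 23 other endothelial genes passed with 8 of the 10 genes, at r = 0.948 for Cdh5 and 0.725 for Vcam1, but not with Eng (0.16). Pericyte markers, from the cells that wrap capillaries, passed with 8 (Cdh5 0.898) and fibroblast markers with 8 (Tek 0.832). Leukocyte and macrophage markers passed with 7, and their highest r was with Vcam1 (0.844, rho 0.721), followed by Tek (0.81) and Pecam1 (0.786). Flt1 passed at 0.363, and Vwf (0.374, rho 0.169) did not pass both tests. T cell markers passed with 6 (Vcam1 0.718) but not with Vwf (0.171), and lymph node and platelet markers passed with 5 each. Muscle markers passed both tests with none of 10. Their highest r, 0.266 with Tie1, was 0.0286 without the 2 farthest arrays, whereas that with Tek went from 0.253 to 0.364, with a rho of 0.316 that passed alone (permutation p adjusted to 0.00975). The part of leukocytes, fibroblasts or pericytes in each gene's level was not tested. Leukocyte and macrophage markers themselves averaged 10.03 ± 0.83 (SD) in Responder and 9.19 ± 0.65 in NonResponder tumours.

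**Figure D5:**
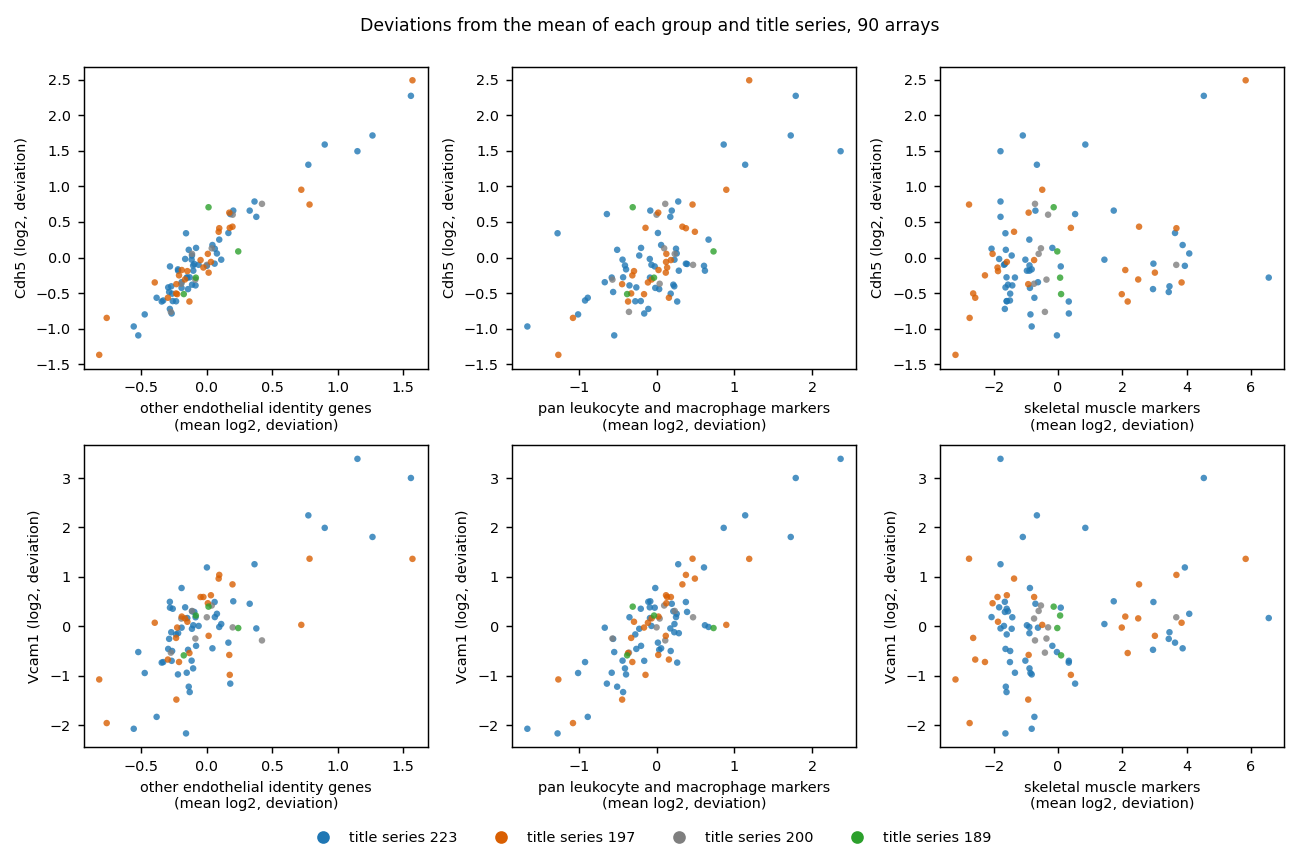
Deviations of Cdh5 and Vcam1 from the mean of their group and title series (log2), in each of the 90 arrays, against the deviations of the mean of the other endothelial genes, of leukocyte and macrophage markers and of skeletal muscle markers. Cdh5 follows the other endothelial genes most closely (r = 0.948) and Vcam1 follows the leukocyte and macrophage markers most closely (r = 0.844).

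The genes most like these in pattern were named by their correlation across the same 90 arrays, as a description. For Pecam1, Cdh5, Tie1, Tek, Eng and Kdr, the correlations of a gene with each of the 6 were averaged. This mean r was highest for Sox18 (0.79), Col18a1 (0.78), Mmrn2 (0.78) and Pdgfb (0.78), followed by 2900026A02Rik, Notch3, Hlx, Ptprb, Col15a1 and Robo4 at 0.77. Sox18 is a transcription factor of vessel development, Robo4 a receptor of endothelium, and Col18a1 and Col15a1 are collagens of the basement membrane. For Vwf the closest were Mrtfb (0.82), the basement membrane collagens Col4a1 (0.82) and Col4a2 (0.81), Card10 (0.81) and Notch4 (0.80). For Vcam1 they were Acp5 (0.88), Rnf144b (0.87), Nxpe4 (0.87), Gpr65 (0.86) and the complement gene C1qc (0.86), and Acp5 and C1qc are typical of macrophages. For Sele nothing came above 0.52 (Slc22a26).

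The wider vessel programme was followed in lists of genes other than the 10, also chosen with earlier results of these data known. These lists were not refitted without the arrays that stood apart, so how far their counts rest on those arrays was not tested. Their counts stand against 17.2% of all genes higher and 29.8% lower in Responder than in NonResponder tumours. Of 23 other endothelial genes 11 were higher and none lower in Responder than in NonResponder tumours, with a median of 0.27 beside -0.06 for all genes. Examples are Cd93 (0.97 ± 0.24, SE, limma adjusted p = 0.00158), a lectin-like receptor of growing vessels that myeloid cells also carry, its matrix partner Mmrn2 (0.70, 0.00658), Cd34 (0.64, 0.0107) and the arterial transcription factor Sox17 (0.55, 0.0279). Within S223 none of the 23 was called (2.63% of all genes), within S197 6 were higher (14.3%), and in Stabilization against NonResponder tumours 15 were higher (10.5%), with a median of 0.96. Against controlIgG the Responder tumours had 1 higher (14.5%) and 1 lower (22.8%).

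Among 16 genes of VEGF, angiopoietin and endoglin signalling 8 were higher and 1 lower, with a median of 0.30. Acvrl1, the kinase receptor that works with endoglin, was higher by 0.64 (limma adjusted p = 0.000103), and the neuropilins Nrp2 (0.96, 0.000246) and Nrp1 (0.65, 0.000877), which bind VEGF beside its receptors, were higher too, as was the ligand Tgfb1 (0.85, 0.000717). The lower gene was Gdf2, a circulating ligand of Acvrl1 and endoglin. Of 12 tip cell and Notch genes, which decide which endothelial cell leads a sprout, 4 were higher and 1 lower (Jag2), a share called near that of all genes (47%), with Notch1 at 0.62 (adjusted p = 0.000244), Jag1 at 0.85 (0.0036), Notch4 at 0.58 (0.0167) and Cxcr4 at 0.63 (0.0205). Of 11 measured pericyte markers 4 were higher, Pdgfrb (0.84, 0.00368), Acta2 (0.56, 0.0138), Notch3 (0.51, 0.0333) and Myh11 (0.25, 0.049). Within S223, where 2.63% of all genes were called, 1 of the 16 VEGF, angiopoietin and endoglin genes was called, lower. There 1 of the 12 tip cell and Notch genes was higher and none of the 11 pericyte markers was called. Within S197, 9, 3 and 4 genes of these lists were higher and none lower (14.3% of all genes higher, 22.4% lower).

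Leukocytes hold on to endothelium through paired adhesion molecules. Of 11 measured adhesion partners 7 were higher and none lower, with a median of 0.47. They include Icam1 (0.47, limma adjusted p = 0.000249), which endothelium and many other cells display, its leukocyte integrins Itgal (1.46, 0.000112) and Itgb2 (1.34, 0.000253), and Selplg (1.24, 0.000249), the leukocyte ligand of selectins. Of 15 measured genes of the inflammatory signalling that induces endothelial adhesion genes, receptors and inhibitors included, 12 were higher. Ifng was higher by 1.52 (limma adjusted p = 5.17e-05) and the interferon-responsive regulator Irf1 by 0.71 (0.000197). The TNF receptor Tnfrsf1b was higher by 1.20 (0.000261) and the feedback inhibitor Tnfaip3 by 0.72 (0.000266). The leukocyte partners are made mainly by leukocytes, whose markers were also higher (9 of 10, median 0.87, for example Ptprc at 1.25, adjusted p = 0.000159). Within S223, none of the 11 adhesion partners and none of the 10 leukocyte and macrophage markers was called (2.63% of all genes called). There 2 of the 15 signalling genes were higher. Within S197, 7, 9 and 13 genes of these lists were higher and none lower (14.3% of all genes higher, 22.4% lower).

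Markers of other cells that carry some of the 10 genes were read beside them. Of 7 measured T cell markers 6 were higher (median 1.19, Cd3g at 2.00, limma adjusted p = 5.17e-05), and all 9 fibroblast markers were higher (median 1.09, Col1a1 at 1.44, 0.00253). Of 7 measured platelet and megakaryocyte markers, which share Vwf and Pecam1, none was higher and 3 were lower: Treml1 (-0.15, 0.00726), Gp1bb (-0.13, 0.0081) and Gp9 (-0.18, 0.0125). Of 5 measured lymphatic endothelial markers Pdpn, which fibroblasts also make, was higher (0.88, 0.0212), and Prox1, the lymphatic master regulator, was lower (-0.22, 0.0127). Within S223, 1 T cell marker was higher, no platelet marker was called and 1 lymphatic marker was lower (2.63% of all genes called). Within S197, 7 T cell markers were higher, 2 platelet markers lower and no lymphatic marker was called (14.3% of all genes higher, 22.4% lower). Lymph node markers had 1 of 6 higher (Ltb, 1.43, 0.000324) and 1 lower (Madcam1, -0.30, 0.000261), adipocyte markers 1 of 6 higher (Lipe, 0.67, 0.00835) and melanocyte markers 2 of 9 lower, Pmel (-0.93, 0.0114) and Gpr143 (-0.69, 0.00569). The counts of these 3 lists, and of the lymphatic markers, are near or below the shares of all genes called higher (17.2%) and lower (29.8%).

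Promoter sequence from RefSeq (GRCm38.p6, 250 bases before to 50 bases after the start) was on hand for 6 of the 10 genes, Eng, Flt1, Kdr, Sele, Tek and Tie1. The window of Sele is shown because the gene stayed near the bottom of the array's range, and that of Tie1 because it followed Cdh5 most closely. Capitals mark AGGAAG (the core that ETS factors of endothelium bind, CTTCCT on the other strand) and the TATA box TATAAA.

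Sele, chr1:164047984-164048283, plus strand: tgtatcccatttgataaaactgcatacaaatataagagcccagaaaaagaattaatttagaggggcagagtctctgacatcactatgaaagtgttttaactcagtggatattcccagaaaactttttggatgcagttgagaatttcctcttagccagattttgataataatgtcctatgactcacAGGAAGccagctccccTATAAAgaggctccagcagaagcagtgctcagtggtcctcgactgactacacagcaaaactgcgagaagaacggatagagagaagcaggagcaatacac
Tie1, chr4:118489800-118490099, minus strand: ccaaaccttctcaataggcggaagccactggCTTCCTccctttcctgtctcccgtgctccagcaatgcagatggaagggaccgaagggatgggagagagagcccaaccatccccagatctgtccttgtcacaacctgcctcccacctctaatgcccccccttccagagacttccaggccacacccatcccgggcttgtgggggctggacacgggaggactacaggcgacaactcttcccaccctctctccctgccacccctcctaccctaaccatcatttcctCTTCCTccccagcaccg

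AGGAAG on either strand was in 4 of the 6 windows and in 35.4% of 32851 windows of the same length. TATAAA on either strand was in 2 of the 6, Sele and Flt1, and in 13.6% of all windows. The pattern GGGNNTTCC, a form of the NF-kappaB motif, was searched on both strands and found in none of the 6 and in 5.8% of all windows. Other forms of that motif were neither searched nor marked, so the windows, that of Sele included, may hold sites that this pattern misses. These are matches of letters and say nothing of what is bound in these tumours.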

How the data were processed

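The deposited values are log2 probe set values from Affymetrix mouse 3' arrays, which the authors had normalized by RMA, per the submitters' processing notes, which also name limma and give no versions. Which arrays were normalized together is not given in the sources used here. RNA was column-purified with DNase treatment, amplified and biotin-labelled, per the labels' protocols. The precision is limited by the number of arrays.

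The table holds 45101 probe sets. Control probe sets (64), those with several symbols (932) and those not listed in the annotation (9160) were left out, and each of 18193 genes was given by its brightest probe set. One linear model per gene (limma 3.58.1, R 4.3.3, lmFit and eBayes) was fitted to all 90 arrays with group and title series as fixed terms, two-sided, with Benjamini-Hochberg adjustment over all genes at 0.05. Differences within a title series and the interaction came from a model with 1 mean per group and series. Correlations used 100000 permutations within group and series, whose smallest p is 1e-05 (SciPy 1.17.1, NumPy 2.4.6, statsmodels 0.14.6). Arrays were set apart when their mean over muscle or lymph node markers lay more than 2 log2 units above the median, or when their mean correlation with the others lay more than 3 scaled MAD below the median (limit 0.967). Replicate numbers follow the order of deposit and only name an array. Responder against controlIgG borrows, through the block, the smaller series' difference between Responder and NonResponder. The procedure was tested on simulated data. The genes, the marker lists and the comparisons were chosen with earlier results of these data known. The text names the 10 genes throughout, the 4 genes of each list with the smallest p in Responder against NonResponder, of which the called ones are given, the other lower genes of a list where they make up its count, and the genes closest in pattern. Alternatives covered the block, normalization, probe set choice, dim genes, array weights, variance model, each set of arrays, single title series and each array left out.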

Additional observations from a re-analysis of the deposited data

Results flagged for a closer look

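In 60 sets of 4 to 10 arrays, each of 1 gene in a whole group or in a group within a title series, 4 had an array far from the rest by Dixon's criterion, where chance gives about 1 in 20. In the 10 Responder tumours of series S197, replicate 21 was highest for Cdh5 at 9.63, with the next at 7.89, for Tie1 at 8.35, with the next at 6.59, and for Flt1 at 7.62, with the next at 6.76. The same Responder array had the highest muscle score (13.6), a melanocyte score of 6.79 and the lowest mean correlation with the other arrays (0.902). Without it, Cdh5 and Tie1 were not called in Responder against NonResponder. Among the 4 PBS tumours of 1 title series, replicate 6 was lowest for Tie1 at 4.68, with the next at 4.99, a gap of 0.830 of the range against the critical 0.829.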

How the results depend on the processing

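Vcam1 kept its direction and its call in Responder against NonResponder under the 11 alternatives fitted across the title series (0.98 to 1.53), and in Responder against controlIgG under the same 11. In S223 fitted alone it was not called in the former. For the other genes the calls depended on the processing, and the cause was not tested. In Responder against NonResponder the called genes numbered, with the share of all genes called, 3 of 4 tested with dim genes left out (48.3%), 1 without the muscle arrays (14.3%), 0 in S223 fitted alone (3.02%), 3 in S197 fitted alone (19.1%), and 4 (without Responder replicate 21) to 8 (without NonResponder replicate 14) when each array was left out. In Relapse against NonResponder they numbered 0 with no block (8.91%), without the muscle arrays (1.43%) and in S223 (0%) or S197 (2.98%) alone, 2 counting any probe set (14.5%), 3 after median centring (40.4%), 4 without the low-correlation arrays (39.8%), 7 with array weights (57.2%), and 0 (without Relapse replicate 1) to 2 (without NonResponder replicate 6) with each array left out. In Stabilization against NonResponder they numbered 1 of 4 tested with dim genes left out (34.0%), 9 with array weights (80.2%), 0 without the muscle or the low-correlation arrays (0%), and 0 to 8 with each array left out, 8 without Stabilization replicate 3. Counting any probe set, Responder against controlIgG had 4, with 3 higher and 1 lower (30.3% of probe sets). With array weights, controlIgG against PBS had 2, Cdh5 and Pecam1 (12.5%). The estimation of array weights stopped before it converged. Where a setting left 1 Stabilization or 1 GrowthDelay tumour, the fit assumed that it varies like the other groups. No paired analysis was possible because the labels give no replicate numbers shared between groups.

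Over the settings other than leaving out single arrays, 708 values kept direction and side of the threshold, 25 gained and 24 lost a call, and 75 changed sign. Of these 75, none was called after the change and 2 were called before it, Vwf in Stabilization against NonResponder without either set of arrays. The values after the change of sign, log2, were as follows. With no block these were Eng -0.012, Tek 0.020, Vwf 0.017 (NonResponder minus controlIgG), Pecam1 -0.023, Vwf 0.0036 (Relapse minus Responder), Eng -0.15, Sele 0.022 (Stabilization minus NonResponder). There also Tie1 0.081, Vcam1 -0.26 (GrowthDelay minus NonResponder), Kdr -0.030, Tek 0.017, Vcam1 0.27 (controlIgG minus PBS). With a random block these were Vcam1 -0.0075 (NonResponder minus controlIgG), Vcam1 -0.049 (GrowthDelay minus NonResponder), Tek 0.029, Vcam1 0.18 (controlIgG minus PBS). After quantile normalization these were Kdr -0.020, Sele 0.032 (Responder minus controlIgG), Pecam1 -0.042, Vwf 0.012 (Relapse minus Responder), Sele 0.037 (Relapse minus NonResponder). There also Sele 0.071 (Stabilization minus NonResponder). After median centring these were Kdr -0.018 (Responder minus controlIgG), Pecam1 -0.027 (Relapse minus Responder), Flt1 -0.038 (Relapse minus NonResponder). With the mean of all probe sets these were Cdh5 -0.064 (Responder minus controlIgG), Vcam1 -0.12 (NonResponder minus controlIgG), Flt1 0.011 (Relapse minus Responder). With array weights these were Flt1 0.040, Kdr 0.13, Tek 0.12, Tie1 0.11, Vcam1 0.0098, Vwf 0.10 (Relapse minus Responder), Tek 0.14, Vcam1 0.070, Vwf 0.18 (controlIgG minus PBS). Without the lymph node arrays these were Vcam1 -0.15 (NonResponder minus controlIgG), Vwf 0.030 (Relapse minus Responder). Without the muscle arrays these were Cdh5 0.019, Flt1 0.094, Kdr 0.029, Pecam1 0.018, Tek 0.12, Tie1 0.14, Vwf 0.18 (NonResponder minus controlIgG), Flt1 0.026, Kdr 0.091, Tek 0.10, Tie1 0.023, Vwf 0.038 (Relapse minus Responder), Eng -0.024, Kdr -0.10, Sele 0.030, Tek -0.25, Vwf -0.25 (Stabilization minus NonResponder). There also Kdr -0.10, Pecam1 -0.15, Sele -0.0098, Tek -0.19, Vcam1 -0.27 (GrowthDelay minus NonResponder), Vwf 0.13 (controlIgG minus PBS). Without the low-correlation arrays these were Cdh5 -0.0084, Flt1 -0.014, Kdr -0.062 (Responder minus controlIgG), Vcam1 -0.14 (NonResponder minus controlIgG), Flt1 0.038, Kdr 0.13, Tek 0.17, Tie1 0.11, Vwf 0.14 (Relapse minus Responder). There also Eng -0.040, Kdr -0.012, Tek -0.20, Vwf -0.24 (Stabilization minus NonResponder). Leaving out 1 array at a time, differences that spanned 0 were, in Responder minus controlIgG Kdr -0.013 to 0.17, Flt1 -0.0099 to 0.13, in NonResponder minus controlIgG Vcam1 -0.20 to 0.24, Tie1 -0.27 to 0.00022, Tek -0.27 to 0.016, Flt1 -0.14 to 0.0072, Vwf -0.11 to 0.034. Further, in Relapse minus Responder Pecam1 -0.065 to 0.12, Cdh5 -0.075 to 0.16, Tek -0.31 to 0.066, Kdr -0.10 to 0.044, Flt1 -0.11 to 0.017, Vwf -0.15 to 0.071, Vcam1 -0.41 to 0.048, in Stabilization minus NonResponder Sele -0.10 to 0.026. Further, in GrowthDelay minus NonResponder Pecam1 -0.087 to 0.18, Tek -0.20 to 0.54, Kdr -0.10 to 0.14, Vcam1 -0.10 to 0.23, Sele -0.025 to 0.25, Vwf -0.52 to 0.32, in controlIgG minus PBS Tie1 -0.039 to 0.51, Eng -0.10 to 0.44, Tek -0.17 to 0.11, Vwf -0.27 to 0.30. None of these was called.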

Other observations

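The highest vessel gene levels were gathered in a few tumours of different groups. Responder replicate 21 was among the 5 highest arrays for 8 of the 10 genes. Stabilization replicate 1 and controlIgG replicate 7 were for 7 each, all but Eng, Vcam1 and Sele. Responder replicate 4 was for 6. Their skeletal muscle scores were 13.6, 7.67, 11.3 and 4.69 for Responder 21, Stabilization 1, controlIgG 7 and Responder 4. In the same order their leukocyte and macrophage scores were 11.7, 12.0, 11.1 and 11.5, and their fibroblast scores 12.6, 12.8, 11.4 and 12.2. Over all arrays muscle scores ran from 4.69 to 13.6, and leukocyte and macrophage scores from 7.84 to 12.0. The part of these cells in the vessel gene levels was not tested. The controlIgG tumour had received no PD-L1 antibody. Its T cell score of 6.89 lay below the 9.06 of Responder 21 and the 8.16 of Responder 4. Among the 22 controlIgG tumours the T cell scores ran from 5.51 to 6.89, so this tumour was at the top of its group.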
